A study of Mus musculus with 6 samples.

Results

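The 10 genes described here encode the core kinases of the Hippo pathway and their nearest relatives, the NDR kinases, with the adaptor proteins that these kinases need. They were chosen by gene symbol, as Stk3, Stk4, Lats1, Lats2, Sav1, Mob1a, Mob1b, Stk38, Stk38l and Wwc2, with no threshold on a measured value, although earlier results of these data were known when they were picked. All 10 are among the 29510 gene symbols of the deposited table, and they account for 57 of its 85882 transcripts. RNA sequencing covered 6 libraries of undifferentiated primary chondrocytes, the cells that make cartilage, cultured from mice. Every library carried floxed Nf2 alleles (Nf2f/f). The 3 control libraries had no Cre, and the 3 libraries labelled cKO also carried Prx1-CRE, a recombinase driven by a promoter active in limb bud mesenchyme, so effects of Cre itself and of Nf2 loss cannot be told apart. The sources used here give no age of the animals, no number of animals and no pooling, and p-values measure the spread between these libraries, which may be partly technical.

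Nf2 encodes merlin, a membrane-cytoskeleton linker that acts upstream of the Hippo kinases. In the Hippo pathway MST1 and MST2, encoded by Stk4 and Stk3, bind the scaffold SAV1 and phosphorylate the LATS kinases and the MOB1 adaptors. Activated LATS1 or LATS2, bound to MOB1 and held at the membrane by merlin and by KIBRA-family proteins such as WWC2, phosphorylates the coactivators YAP and TAZ and keeps them out of the nucleus. NDR1 and NDR2, encoded by Stk38 and Stk38l, belong to the same kinase family as LATS and also use MOB1. They are known for roles in centrosome duplication, cell polarity and formation of the primary cilium, and limb development and cilia are among the interests named in the title of the study.

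Levels are FPKM, fragments scaled to transcript length and library total, summed over the transcripts of a gene. Between 12441 and 12697 genes reached 1 FPKM in a library, and the correlation of log2 values over genes, themselves no replicates, was 0.987 to 0.989 for libraries of the same group and 0.972 to 0.982 for libraries of different groups. Nf2 itself had 16.66, 16.65 and 14.14 FPKM in the control libraries and 17.53, 15.63 and 18.14 FPKM in the libraries labelled cKO (limma adjusted p = 0.463). The groups overlapped, and since the table gives whole transcripts and no exons, an RNA from a recombined allele would still be counted, so this level does not check the labels. Chondrocyte markers were present in every library, and 10 of 10 were lower in cKO, with a summed level of 4678 to 5801 FPKM in the controls and 2088 to 2676 FPKM in cKO. In bulk RNA fewer cells of a type and less RNA per cell cannot be told apart. Of the other marker lists, 3 of 7 tested genes of fibroblasts, perichondrium and tendon fell, from a summed 569 to 621 FPKM to 248 to 389 FPKM. Adipocyte markers rose for 3 of 4 tested genes, from a summed 53.6 to 59.4 FPKM to 65.1 to 98.5 FPKM. Des, the 1 tested muscle marker, and Trp63, the 1 tested epidermal marker, also rose, with summed levels of 3.26 to 4.11 FPKM against 6.71 to 7.63 FPKM for the muscle list and 1.56 to 1.92 FPKM against 2.43 to 3.61 FPKM for the epidermal list. None of 5 endothelial genes reached a mean of 1 FPKM, and the summed level of that list was 0.217 to 0.414 FPKM in the controls and 0.375 to 0.819 FPKM in cKO. Macrophage and leukocyte markers summed to 5.15 to 16.3 FPKM in the controls and 6.08 to 9.73 FPKM in cKO, and osteoblast markers to 36.0 to 56.8 FPKM and 51.8 to 218.6 FPKM, with no tested gene past the test in either list. The part of these shifts in the results below was not tested.

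One gene of the 10 differed between the groups. Stk38l, which encodes NDR2, was lower in cKO at 0.629 of its control level, while its paralog Stk38 (NDR1) had a change of 0.02 on the log2 scale with a 95% interval from -0.14 to 0.19. Among all 14080 genes tested, 12.2% passed the test in either direction and 4.57% passed it as lower in cKO, so 1 of 10 lies near the background and is no result about the genes as a set. Over all genes, 1070 were higher and 643 lower, a split that became 690 higher and 736 lower after median-of-ratios scaling and 666 higher and 735 lower after quantile normalization. The number of genes past the test was 678 without control 1 and 537 without control 2. The median log2 change of the 10 genes was 0.010, beside 0.051 over all genes tested. 5 of the 10 were lower and 5 higher in cKO, and in 4 (Stk38l, Lats2, Mob1a and Wwc2) the values of the groups did not overlap, where 35.1% of all tested genes did not. The same 4 genes had an unadjusted limma p under 0.05, as did 4164 of the 14080 genes tested.

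**Figure D1:**
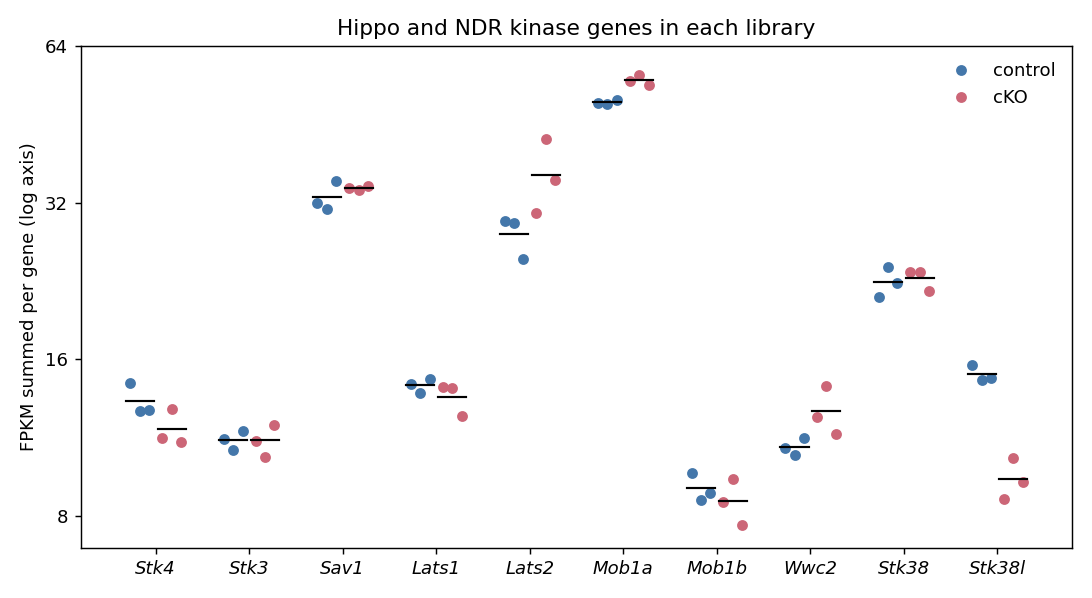
FPKM summed per gene (log axis) for the 10 genes in each of 6 libraries. Blue points are the 3 control libraries, red points the 3 cKO libraries and black lines the group means. The Stk38l points of cKO lie between 8.62 and 10.3 FPKM, below the control points at 14.6 to 15.6 FPKM, and the Lats2 points of cKO spread from 30.5 to 42.5 FPKM.

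Stk4 and Stk3, the MST kinases at the head of the cascade, did not pass the test. Stk4 (ENSMUSG00000018209, chr2:164070322-164155524 on the plus strand of mm10) had 14.37, 12.72 and 12.75 FPKM in the controls and 11.28, 12.81 and 11.09 FPKM in cKO. The highest value was in control 1 and the groups overlapped through cKO 2. The log2 change was -0.17 (SE 0.085), with a 95% interval of -0.37 to 0.02 and a limma adjusted p of 0.221. Tomm34, a mitochondrial import gene on the opposite strand, overlaps the start of Stk4 and had 12.9 FPKM in the controls and 13.3 FPKM in cKO. Stk3 (ENSMUSG00000022329, chr15:34875496-35178921, minus strand) had 11.22, 10.68 and 11.64 FPKM in the controls and 11.16, 10.39 and 11.96 FPKM in cKO, the closest agreement of group means among the 10 genes. The 95% interval of its log2 change ran from -0.18 to 0.18, which corresponds to 0.881 to 1.13 of the control level.

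Sav1, the scaffold that joins MST to LATS, was the second most abundant of the 10 in control when all transcripts of a gene are summed. Sav1 (ENSMUSG00000021067, chr12:69965012-69987002, minus strand) had 31.95, 31.12 and 35.17 FPKM in the controls and 34.13, 33.77 and 34.43 FPKM in cKO. All cKO values lay inside the control range. Its log2 change was 0.06 (SE 0.065, limma adjusted p = 0.589), and -0.02 after quantile normalization. Of its 3 transcripts the protein-coding one was the most abundant in every library, at 77.7% ± 2.82 (SD, n = 3) of the gene in control and 81.0% ± 1.43 (SD, n = 3) in cKO, and 2 retained-intron transcripts made up the remainder. Of the 50-base stretches of the main Sav1 transcript 52.0% also lie, on the opposite strand, in Atl1, which had 1.36 FPKM in the controls and 1.32 FPKM in cKO. Library construction used dUTP, which marks strand, but the counting program is not given in the sources used here, so reads of overlapping genes may be mixed.

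Lats1 and Lats2 encode the kinases that act directly on YAP and TAZ. Lats1 (ENSMUSG00000040021, chr10:7681214-7716460, plus strand) had 14.32, 13.77 and 14.64 FPKM in the controls and 14.15, 14.06 and 12.43 FPKM in cKO. The groups overlapped, with cKO 3 the lowest library. For Lats1 the log2 change was -0.07 (SE 0.075, limma adjusted p = 0.576). Lats2 (ENSMUSG00000021959, chr14:57689662-57758388, minus strand) had 29.54, 29.21 and 24.94 FPKM in the controls and 30.51, 42.46 and 35.38 FPKM in cKO. Every cKO library was above every control library, but cKO 1 was above control 1 by less than the spread within control, and cKO 2 was the highest library by a wide margin. The log2 change was 0.36 (SE 0.12), with a 95% interval of 0.08 to 0.64 and a limma adjusted p of 0.0931, which missed the threshold of 0.05. It was 0.0442 without cKO 1, at a log2 change of 0.47, and ranged from 0.0442 to 0.248 over 16 alternatives, and the log2 change was 0.24 without cKO 2. Lats2 is itself known as a target gene of YAP and TAZ. Of the 50-base stretches of the main Lats2 transcript 56.5% are also annotated on the same strand in Gm49361, which is not analysed here, and an estimate that split reads between these genes would move the level of Lats2.

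Mob1a and Mob1b encode the 2 forms of the MOB1 adaptor, which binds LATS and NDR kinases alike. Mob1a (ENSMUSG00000043131, chr6:83326016-83343776, plus strand) was the most abundant of the 10 genes, with 49.70, 49.59 and 50.45 FPKM in the controls and 54.83, 56.39 and 53.79 FPKM in cKO. The groups were separate and the control libraries lay within 1 FPKM of each other. The log2 change was 0.14 (SE 0.054, limma adjusted p = 0.131), with a 95% interval of 0.02 to 0.26. It was 0.09 after median-of-ratios scaling and 0.06 after quantile normalization, with unadjusted limma p of 0.125 and 0.265. Mob1b (ENSMUSG00000006262, chr5:88720855-88764220, plus strand) was the least abundant, with 9.67, 8.56 and 8.84 FPKM in the controls and 8.50, 9.43 and 7.67 FPKM in cKO. The groups overlapped, with a log2 change of -0.08 (SE 0.094, limma adjusted p = 0.622). Wwc2 (ENSMUSG00000031563, chr8:47823959-47990924, minus strand), of the KIBRA family that promotes LATS activation, had 10.80, 10.45 and 11.30 FPKM in the controls and 12.39, 14.18 and 11.51 FPKM in cKO. The groups were separate, though cKO 3 exceeded control 3 by only a small part of the spread within either group. For Wwc2 the log2 change was 0.21 (SE 0.089), with a 95% interval of 0.01 to 0.42 and a limma adjusted p of 0.154, and it was 0.13 without cKO 2. The claudin gene Cldn22, on the opposite strand and not analysed here, holds 11.0% of the 50-base stretches of the main Wwc2 transcript.

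Stk38 and Stk38l encode NDR1 and NDR2. Stk38l (ENSMUSG00000001630, chr6:146724995-146778812, plus strand) had 15.60, 14.58 and 14.75 FPKM in control, 14.98 ± 0.54 (SD, n = 3). In cKO it had 8.62, 10.32 and 9.30 FPKM, 9.42 ± 0.86 (SD, n = 3). Each cKO library was below every control library, by more than 4 FPKM at the nearest values. The log2 change was -0.65 (SE 0.083), with a 95% interval of -0.84 to -0.46, or 0.561 to 0.729 of the control level, and a limma adjusted p of 0.00313. It passed the test under 16 of 16 alternatives, with adjusted p from 0.00236 to 0.0240 and log2 changes from -0.71 to -0.59. Stk38 (ENSMUSG00000024006, chr17:28970880-29007995, minus strand) had 21.10, 24.05 and 22.40 FPKM in the controls and 23.54, 23.52 and 21.59 FPKM in cKO. The groups overlapped, and the sign of its log2 change of 0.02 (limma adjusted p = 0.862) turned to -0.03 after median-of-ratios scaling and -0.05 after quantile normalization.

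Part of the sequence of Stk38l is repeated elsewhere in the genome. Of the 50-base stretches of its main transcript 19.5% are also found in 2 processed pseudogenes, Gm3555 on chromosome 1 and Gm7451 on chromosome 8. Gm3555 had 4.17, 5.26 and 5.22 FPKM in the controls and 3.95, 4.53 and 3.68 FPKM in cKO, with a log2 change of -0.24 (limma adjusted p = 0.228). Gm7451 had 1.02, 0.985 and 0.975 FPKM in the controls and 1.11, 0.997 and 0.673 FPKM in cKO (limma adjusted p = 0.798). How the authors assigned reads shared by these genes is not given in the sources used here, and the levels of all 3 are uncertain to that extent. The paralogs within each pair of members (Stk38 and Stk38l, Lats1 and Lats2, Stk3 and Stk4, Mob1a and Mob1b) shared 0 stretches of 50 bases in their main transcripts.

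**Figure D2:**
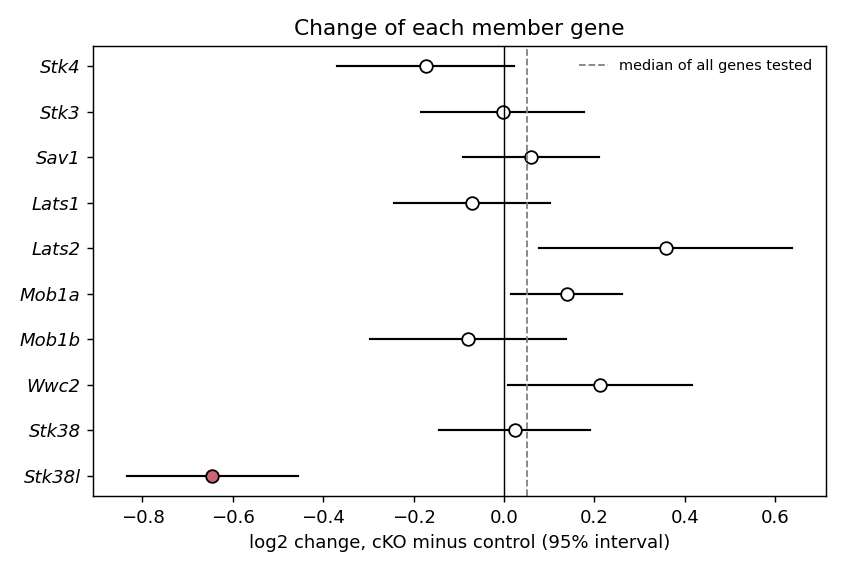
Log2 change of each gene, cKO minus control, with its 95% interval from limma on log2(FPKM + 0.5). The filled point passed the test at an adjusted p under 0.05, open points did not, and the dashed line is the median of all 14080 genes tested (0.051). The interval of Stk38l runs from -0.84 to -0.46, and those of Lats2, Mob1a and Wwc2 lie above 0 without passing the adjusted test.

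FPKM are scaled to length, so summed levels can be ranked between genes, here with retained-intron transcripts included. With protein-coding transcripts alone, control means were 25.4 FPKM for Sav1 and 27.7 FPKM for Lats2. They were 14.05 FPKM for Stk38 and 14.98 FPKM for Stk38l, each the reverse of the order of sums. Levels of genes that share sequence with other genes, such as Lats2 and Sav1, also depend on how reads were assigned. In control the order was Mob1a, Sav1, Lats2, Stk38, Stk38l, Lats1, Stk4, Stk3, Wwc2 and Mob1b, from 49.9 to 9.03 FPKM. Neighbours whose control values overlapped were Stk38l and Lats1, Lats1 and Stk4, and Stk3 and Wwc2. In cKO the order was Mob1a, Lats2, Sav1, Stk38, Lats1, Wwc2, Stk4, Stk3, Stk38l and Mob1b, from 55.0 to 8.53 FPKM. Values overlapped there between Lats2 and Sav1, between each neighbour from Lats1 to Stk3, and between Stk38l and Mob1b. By these sums Stk38l stood at rank 5 of 10 in control and rank 9 in cKO, below all cKO values of Stk3.

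The members form 4 pairs of paralogs, and the share of 1 gene in the summed FPKM of its pair does not depend on the scaling of the library. These pairs were picked for description with the levels known, and with 3 libraries against 3 an exact permutation test cannot give a 2-sided p under 0.1. Stk38l made up 42.5, 37.8 and 39.7% of the NDR pair in control and 26.8, 30.5 and 30.1% in cKO. The groups were separate (means 40.0% ± 2.39 and 29.1% ± 2.03, SD, n = 3 each, exact permutation p = 0.1). The sum of the NDR pair was 37.5 FPKM ± 1.01 in control and 32.3 FPKM ± 1.48 in cKO. These values count the retained-intron transcripts of Stk38. Its protein-coding transcripts alone had means of 14.05 FPKM in control and 16.07 FPKM in cKO, and those of Stk38l 14.98 and 9.42 FPKM. On that count Stk38l was not the smaller part of the pair in control. Lats2 made up 67.4, 68.0 and 63.0% of the LATS pair in control and 68.3, 75.1 and 74.0% in cKO. Those groups were separate as well, but cKO 1 was within 1 percentage point of control 2 (means 66.1% ± 2.71 and 72.5% ± 3.66, SD, n = 3 each, exact permutation p = 0.1). The LATS pair summed to 42.1 FPKM ± 2.26 in control and 49.7 FPKM ± 6.14 in cKO. Mob1b made up 15.3% ± 0.86 of the MOB1 pair in control and 13.4% ± 0.92 in cKO (SD, n = 3 each, exact permutation p = 0.1). Stk4 made up 54.3% ± 1.94 of the MST pair in control and 51.2% ± 3.64 in cKO, with overlapping values (SD, n = 3 each, exact permutation p = 0.3). The MOB1 pair summed to 58.9 FPKM ± 0.68 in control and 63.5 FPKM ± 2.2 in cKO, and the MST pair to 24.5 ± 1.10 and 22.9 ± 0.40 FPKM. In all 4 pairs the sums of the groups were separate (exact permutation p = 0.1 each). Unlike the shares, the sums depend on the scaling of the library.

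**Figure D3:**
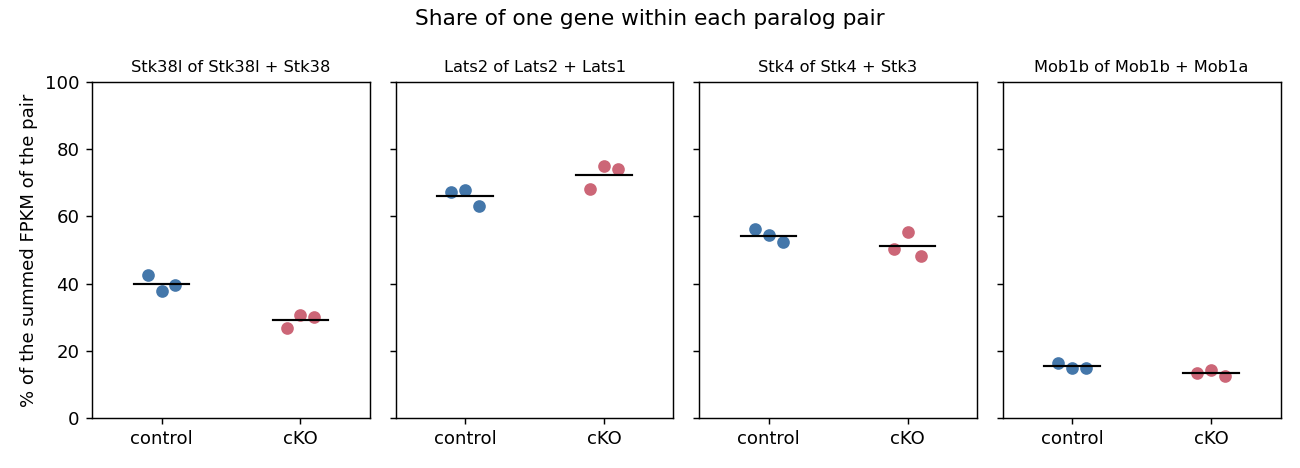
Share of 1 gene in the summed FPKM of its paralog pair, in percent, for the NDR, LATS, MST and MOB1 pairs. Each point is 1 library and black lines are group means. The share of Stk38l is 37.8 to 42.5% in control and 26.8 to 30.5% in cKO, while the values of Stk4 overlap between the groups.

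Of the 57 transcripts, 30 are annotated as protein coding, 16 as retained intron, 6 as processed transcripts and 5 as targets of nonsense-mediated decay. All 57 have the same coordinates in the GENCODE M21 annotation of this build. In 7 genes 1 transcript carried nearly all of the FPKM, from 90.8% of Lats2 to 99.8% of Stk3 in control, and Sav1, Mob1b and Stk38 were more divided. A mean of 0.5 FPKM over the 6 libraries was reached by 19 transcripts, and 38 fell below it and were not tested. None of the 19 passed limma as a single transcript, where 0.609% of 27761 transcripts did (169). An unadjusted limma p under 0.05 was found for 3 of the 19 and for 4039 of the 27761. The count of 169 rests on all 6 libraries, and was 31 to 62 when any 1 was left out. The share of a transcript in its gene was tested for 14 transcripts with limma on the log2 ratio to the other transcripts of the gene. None passed, where 0.0327% of 21406 shares did. The unadjusted limma p was under 0.05 for 1 of the 14 and for 1435 of the 21406.

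The decrease of Stk38l was carried by 1 transcript. ENSMUST00000001675 had 14.87, 13.95 and 13.89 FPKM in the controls and 8.62, 9.93 and 9.21 FPKM in cKO, with a log2 change of -0.60 (SE 0.086). Its adjusted p over all transcripts was 0.0586 in limma, outside the threshold. It passed only when transcripts with a mean of at least 2 FPKM alone were tested (0.0463) and after quantile normalization (0.0447). Under the other alternatives the limma adjusted p ran from 0.0595 to 0.183 apart from the replicate block, which gave 0.253, and it was 0.108 to 0.183 with 1 library left out. The other two transcripts, ENSMUST00000111644 and ENSMUST00000203318, are also protein coding and had means of 0.171 and 0.282 FPKM over the 6 libraries. The authors' deposited table gives ENSMUST00000001675 a fold of 0.65 and a q-value of 5.25e-10.

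The authors' deposited table has a q-value under 0.05 for 3.81% of all 85882 transcripts, and for 6 of the 57 described here. Besides the Stk38l transcript, the main transcripts of Mob1a (ENSMUST00000055261, fold 1.096, q-value 0.000521) and Stk38 (ENSMUST00000009138, fold 1.266, q-value 0.00415) are among them in the authors' deposited table. The remaining 3 reached 0.1 FPKM in 1 library only. Mob1a ENSMUST00000038658 was listed at 0 in 5 libraries and at 1.16 FPKM in control 3, and the authors' deposited table gives it a q-value of 4.69e-07. Mob1a ENSMUST00000101245 was listed at 0 in 5 libraries and at 1.64 FPKM in cKO 3, with a q-value of 1.75e-06 in the authors' deposited table. Stk38 ENSMUST00000232836 was at 1.04 FPKM in control 2 and listed at 0 in the others, with a q-value of 1.09e-06 in the authors' deposited table. In the authors' deposited table as a whole, 512 of the 3272 transcripts with a q-value under 0.05 (15.6%) reached 0.1 FPKM in 1 library only.

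Stk38 had the most varied transcripts of the 10 genes, with 20 in the table. The most abundant transcript, ENSMUST00000009138, and ENSMUST00000119274 are both protein coding, have 14 exons and share 13 of them. They differ at the start of exon 2 (chr17:29000009-29000144 in the longer form, minus strand, mm10), where ENSMUST00000119274 has 3 more bases, a short distance upstream of the start codon. The junction of exons 1 and 2 is printed for both, in the sense of transcription from 10 bases before the junction, with the added bases in capitals, because reads that do not cross it cannot separate these transcripts.
ENSMUST00000119274: cctgggtctgCAGccatggcaatgacagga
ENSMUST00000009138: cctgggtctgccatggcaatgacagga
The form without the 3 bases had 9.24, 9.77 and 10.25 FPKM in the controls and 12.34, 13.51 and 11.18 FPKM in cKO. Its groups were separate, with a log2 change of 0.32 (SE 0.099) and a limma adjusted p of 0.230. The form with them had 4.47, 1.28 and 4.43 FPKM in the controls and 3.28, 2.25 and 4.91 FPKM in cKO. Its values overlapped and control 2 was the lowest. Both forms together, which do not depend on reads across that junction, had 13.7, 11.1 and 14.7 FPKM in the controls and 15.6, 15.8 and 16.1 FPKM in cKO. The groups were separate, with means of 13.15 ± 1.88 and 15.82 ± 0.24 FPKM (SD, n = 3 each, exact permutation p = 0.1, the smallest that 3 against 3 allow).

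The mean share of retained-intron transcripts in Stk38 was larger in control, though none of the 3 tested singly passed the limma share test. The 9 such transcripts summed to 29.9, 40.6 and 30.9% of the gene in control and 29.1, 29.3 and 21.8% in cKO. The groups were separate, but control 1 and cKO 2 lay within 1 percentage point, control 2 was high and cKO 3 low (exact permutation p = 0.1). In FPKM the 9 summed to 7.66 ± 1.83 in control and 6.15 ± 1.25 in cKO (SD, n = 3 each). The largest of the 9, ENSMUST00000144299, had 2.72, 5.40 and 3.50 FPKM in the controls and 3.59, 3.71 and 2.21 FPKM in cKO, with overlapping groups. The limma share tests gave adjusted p of 0.79, 0.84 and 0.94. Of those tested, ENSMUST00000144516 had a higher mean share in cKO (5.62%, against 5.22% in control) and the others a lower one. With protein-coding transcripts alone, the log2 change of Stk38 was 0.19 (limma adjusted p = 0.112), against 0.02 over all of its transcripts.

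**Figure D4:**
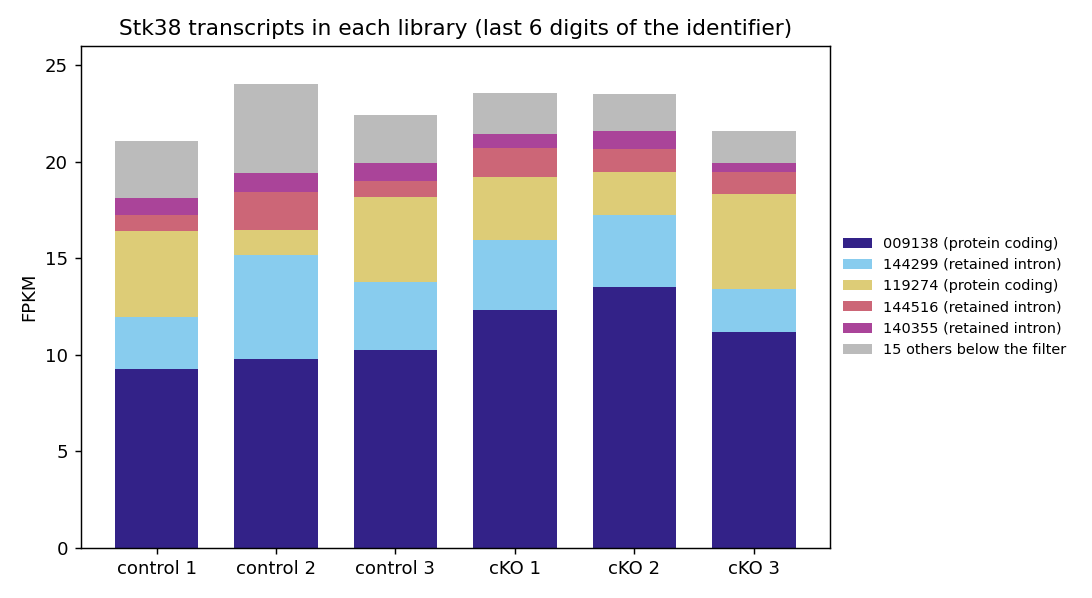
FPKM of Stk38 transcripts stacked in each of 6 libraries, with the 5 transcripts that reached a mean of 0.5 FPKM in colour and the other 15 in grey. The dark blue segment, ENSMUST00000009138, is 9.24 to 10.3 FPKM in the controls and 11.2 to 13.5 FPKM in cKO, and control 2 has the largest light blue retained-intron segment (5.40 FPKM).

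Promoter sequence was examined for the core of the motif bound by TEAD, the DNA-binding partners of YAP and TAZ, since Lats2 is known as one of their targets. The letters GGAATG were searched on either strand in RefSeq promoter windows (GRCm38.p6, 250 bases before to 50 after each start), and 14.7% of 32851 windows held them. There were 10 windows for 9 of the members, with none for Stk3, and 4 held the motif. Lats2, Mob1a and Sav1 had 1 match each and Wwc2 had 3, a number reached by 0.131% of all windows. The matches are printed with 10 bases on each side, 5′ to 3′ on the strand of the gene, with the motif or its reverse complement in capitals so that the matched letters can be read in context. None of these 4 genes passed the test between the groups.
Lats2, chr14:57746104-57746129: tgacgcccgtGGAATGccaacaatgt
Wwc2, chr8:47990732-47990757: gcgagctgtgCATTCCtccgccctac
Wwc2, chr8:47990623-47990648: gttaagctcaGGAATGtggcggcgag
Wwc2, chr8:47990608-47990633: gtggcggcgaGGAATGtgcatgcaga
Mob1a, chr6:83325820-83325845: gccagaatagCATTCCtttaggagaa
Sav1, chr12:69987093-69987118: gctttcccagCATTCCcagcggcgcg
The third and second Wwc2 sites overlap in their flanks and not in their motifs. The windows of Stk38l, Stk38, Stk4, Lats1 and Mob1b did not hold these letters. A match is a run of letters and no measurement of binding.

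Genes that work with the NDR kinases, and further MOB family members, were followed as a list of 15, of which 14 were tested. 3 rose and 2 fell, and 9 did not pass the test, with a median log2 change of 0.026 beside 0.051 over all genes. The share past the test was 35.7%, beside 12.2% of all genes. Fry, a very large scaffold protein that binds NDR kinases and supports their activity, had 8.80, 8.27 and 7.99 FPKM in the controls and 4.55, 4.84 and 4.01 FPKM in cKO, a log2 change of -0.84 (SE 0.093, limma adjusted p = 0.00177). S100b, a calcium-binding protein known to bind NDR1 and to be made by chondrocytes, had 66.9, 70.3 and 67.4 FPKM in the controls and 28.4, 26.7 and 33.6 FPKM in cKO, a log2 change of -1.20 (limma adjusted p = 0.000247). Both were lower in every cKO library, as were the chondrocyte markers. Rab3ip, which encodes the NDR2 substrate Rabin8 of ciliary membrane traffic, rose from 3.36 ± 0.15 to 4.66 ± 0.43 FPKM (SD, n = 3 each, limma adjusted p = 0.0331). Mob3a rose from 17.9 ± 0.87 to 24.1 ± 1.46 FPKM (SD, n = 3 each, limma adjusted p = 0.0104). It is listed as a MOB family member, not as a known NDR partner. Cdkn1a, whose protein p21 is a known NDR substrate, rose from 115.6 ± 4.38 to 178.9 ± 34.6 FPKM (SD, n = 3 each, limma adjusted p = 0.0189). Mob2, which competes with MOB1 for NDR kinases, stood at a log2 change of 0.21 (limma adjusted p = 0.235), and the FRY paralog Fryl one of 0.17 (limma adjusted p = 0.393). Fry and S100b passed under 16 of 16 alternatives, while Mob3a passed under 15, Cdkn1a under 13 and Rab3ip under 8 (adjusted p 0.0313 to 0.104). Rab3ip, for instance, no longer passed after median-of-ratios scaling or without any 1 of the control libraries, Cdkn1a without control 1 or control 2 and Mob3a without control 2. The median of the list became -0.023 after median-of-ratios scaling and -0.033 after quantile normalization. Both also shift the other genes, so these medians cannot be set beside the 0.051 over all genes.

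**Figure D5:**
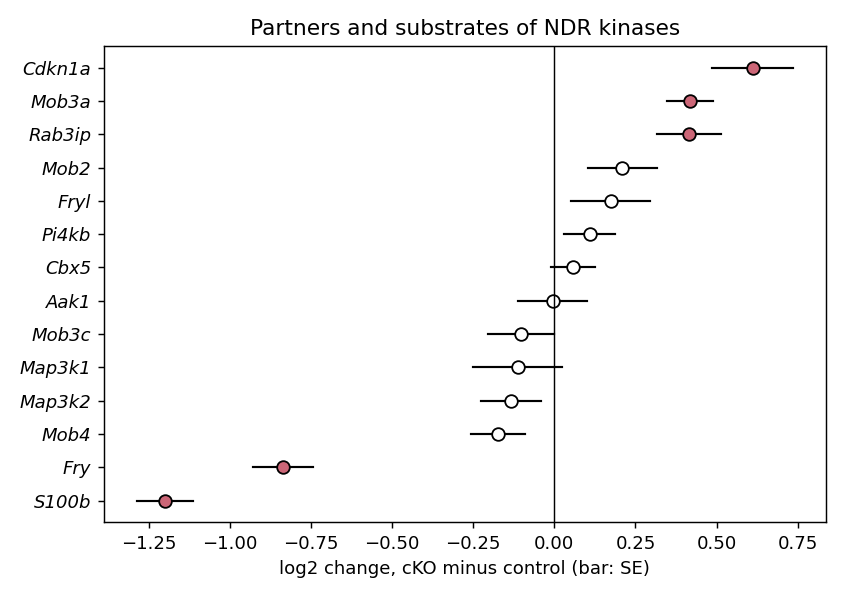
Log2 change, cKO minus control, of the 14 tested genes listed as NDR partners, NDR substrates or further MOB family members. Bars give the SE of the limma fit. Filled points passed the test at an adjusted p under 0.05. S100b (-1.20) and Fry (-0.84) lie lowest and Cdkn1a (0.61) highest.

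Upstream of LATS and NDR, 25 of 28 listed activators and MST-group kinases were tested, and 2 rose, 1 fell and 22 did not pass. Stk26, which encodes the MST4 kinase, had 53.4, 54.3 and 47.3 FPKM in the controls and 25.6, 24.0 and 25.5 FPKM in cKO, a log2 change of -1.03 (SE 0.071, limma adjusted p = 0.000208). It was lower in every cKO library, while the related kinases Stk24 and Stk25 stood at log2 changes of 0.10 each, short of the threshold (limma adjusted p = 0.329 and 0.317). Rassf1 and Rassf2, whose proteins bind MST kinases, rose by log2 changes of 0.54 and 0.48 (limma adjusted p = 0.0111 and 0.0280). Map4k5, a kinase that can act on LATS in parallel to MST, stood at a log2 change of 0.26 (limma adjusted p = 0.0737). Of the tested genes of the list 12.0% passed, near the 12.2% of all genes. Its median log2 change was 0.098, beside 0.051 over all genes. It was 0.048 after median-of-ratios scaling and 0.035 after quantile normalization. These also shift the other genes, so the 0.051 is no reference for the scaled medians. Stk26 passed under 16 of 16 alternatives, Rassf1 under 14 and Rassf2 under 9, with Rassf1 lost without control 2 and Rassf2 without any 1 of the controls or without cKO 1 or cKO 2.

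In the STRIPAK complex, which brings the phosphatase PP2A to MST kinases and lowers their activity, 3 of 13 tested genes rose and none fell, 23.1% beside 12.2% of all genes. Ppp2r1a and Ppp2r1b, the scaffold subunits of PP2A, rose by log2 changes of 0.34 and 0.39 (limma adjusted p = 0.0170 and 0.0317). Cttnbp2nl, another STRIPAK member, stood at a log2 change of -0.20 (limma adjusted p = 0.112), and the median of the list was 0.058, beside 0.051 over all genes. The number that rose was 1 after quantile normalization, and Ppp2r1b passed under 7 and Ppp2r1a under 13 of 16 alternatives. Without control 1 or control 2 neither of them passed, and Ppp2r1b was also lost without any 1 of the cKO libraries.

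A further list of 13 genes held inhibitors and ubiquitin ligases of LATS, and also chaperones, which are neither. Of these 13 genes 2 rose and 1 fell, 23.1% beside 12.2% of all genes, with a median log2 change of 0.095 beside 0.051. Wwp2, a ubiquitin ligase also known for its expression in cartilage, had 102.8, 111.9 and 109.6 FPKM in the controls and 50.1, 51.3 and 49.2 FPKM in cKO, a log2 change of -1.10 (SE 0.059, limma adjusted p = 5.74e-05). Ajuba, a LIM protein that binds and inhibits LATS, rose by a log2 change of 0.53 (limma adjusted p = 0.0215), and Hsp90ab1, the chaperone HSP90 beta, by 0.32 (limma adjusted p = 0.0252). Hsp90aa1 stood at a log2 change of 0.20 (limma adjusted p = 0.0734). Wwp2 passed under 16 of 16 alternatives, Ajuba under 12 and Hsp90ab1 under 11. Ajuba was lost without control 2 or control 3, and Hsp90ab1 without control 1, control 2 or cKO 1 and after quantile normalization, where the median of the list was -0.011. The 0.051 over all genes was taken without that normalization.

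Downstream, 1 of 8 tested genes for YAP, TAZ, TEAD and VGLL factors rose, Vgll4, at a log2 change of 0.25 (limma adjusted p = 0.0469). That share of 12.5% lies near the 12.2% of all genes and is no result about these factors as a set. Their median log2 change was 0.18, beside 0.051 over all genes tested. Among 21 known targets of YAP and TAZ, 7 rose, 1 fell and 13 missed the threshold, with a median log2 change of 0.31. The share past the test was 38.1%, beside 12.2% of all genes, and the median of all genes was 0.051. Asap1, an Arf GTPase-activating protein, rose by a log2 change of 0.63 (limma adjusted p = 0.00213), and the muscle ankyrin repeat gene Ankrd1 by 1.25 (limma adjusted p = 0.0127). Tgfb2, a TGF-beta ligand, rose by 0.73 (limma adjusted p = 0.0117), while Ccn2, a matricellular gene that chondrocytes also make, fell, at a log2 change of -0.53 (limma adjusted p = 0.00747). The targets hold Ajuba, which is also counted among the LATS inhibitors. After median-of-ratios scaling 5 targets rose and after quantile normalization 4. The number was 4 without control 1, 1 without control 2 and 3 without control 3, and 1 without a filter on low values, and the median was 0.17 without cKO 2. Vgll4 passed under 4 of 16 alternatives, was lost under both scalings and without any 1 of the controls, cKO 1 or cKO 3, and had log2 changes down to 0.04 (limma adjusted p 0.0317 to 0.790). Asap1 and Ccn2 passed under 16 of 16 alternatives, and Ankrd1 and Tgfb2 under 14, both being lost without control 2. The remaining targets that rose were less stable and passed under 5 to 12 of 16.

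The tested genes whose profile over the 6 libraries was nearest to that of Stk38l, by the root mean square distance of mean-centred log2 values, were Ivns1abp (0.039), Zfp711 (0.046) and Chst11 (0.048). Ivns1abp, a kelch-domain protein gene, had 66.2, 64.3 and 61.3 FPKM in the controls and 39.7, 45.2 and 41.4 FPKM in cKO. Chst11, a chondroitin sulfotransferase gene, had 33.5, 30.9 and 30.0 FPKM in the controls and 19.8, 21.7 and 20.5 FPKM in cKO. Zfp711, a zinc finger gene, was near 1 FPKM in control (1.12, 0.936 and 0.917 FPKM) and lower in cKO (0.432, 0.541 and 0.442 FPKM). In all 3, as in Stk38l, cKO 2 was the highest cKO library and control 1 the highest control library. These genes were picked for likeness over the same libraries, so the shared order is no separate result.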

How the data were processed

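FPKM per transcript were computed by the authors and deposited as 1 table for 6 libraries, with the authors' fold (the ratio of group means) and q-value, per the file headers. The submitters' processing notes name the build mm10; the authors' aligner, counting program and test were not given in the sources used here. Per the labels' protocols, 1.5 µg of total RNA was fragmented, and dUTP was incorporated. Groups and replicate numbers follow the sample titles.

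The FPKM were summed per gene symbol. Genes whose mean over the libraries reached 0.5 FPKM were tested on log2(FPKM + 0.5), which understates changes of low genes, by limma 3.58.1 (R 4.3.3) with trend, 2-sided, Benjamini-Hochberg adjusted at 0.05 over all genes. Transcripts and their shares were tested likewise, after tests on simulated data. Single values were compared by exact permutation tests (SciPy 1.17.1). The low values matched whole multiples of a step in only 8.39 to 10.5% of cases (within 2%), so counts were not recovered and depth is unknown. Same-numbered libraries did not deviate together (correlations -0.02, -0.06 and -0.05), which with so few libraries cannot show whether the numbers pair them. The labels state no pairing, and the main test used no block.

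Members and gene lists were chosen with earlier results of these data known. Named genes are the 10 members, up to 4 genes with the smallest p per list, other genes past the test whose count was small, and the 3 nearest profiles. Nf2, Fryl, Mob2, Rab3ip, Stk24 and Stk25 were named after their values were seen. One listed gene is not reported here by name.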

Additional observations from a re-analysis of the deposited data

How the results depend on the processing

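The count of 1 member past the test was the same under 15 of 16 alternatives and ranged from 1 to 2 when libraries were left out, Lats2 being added without cKO 1. The 1713 genes past the test became 662 without a filter on low values, 1097 with the replicate number as a block (replicate block) and 1134 without trend, and 537 to 1324 when 1 library was left out. The 169 transcripts became 42 without a filter, 0 under the replicate block (3490 at an unadjusted limma p under 0.05), 19 with a covariate for Xist, and 31 to 62 with 1 library left out. The 7 shares became 20 with a pseudocount of 0.1, 65 without a filter, 0 under the replicate block (1248 unadjusted) and 0 with the Xist covariate (1400 unadjusted in limma), and 0 to 11 with 1 library left out. The replicate block changed no call of a member gene. Changes of sign occurred only in members that passed no test. Sav1 was -0.0231 after quantile normalization, Stk38 was -0.0257 after median-of-ratios scaling and -0.0535 after quantile normalization, and the share of Lats2 ENSMUST00000038381 was -0.0401 with a pseudocount of 1. With 1 library left out, log2 changes ran from -0.0514 to 0.0458 for Stk3, from -0.0532 to 0.0450 for its transcript ENSMUST00000018476, from -0.0211 to 0.0713 for Stk38, from -0.29 to 0.67 for Lats2 ENSMUST00000173990, from -0.0746 to 0.0382 for Mob1b ENSMUST00000113229, from -0.37 to 0.37 for Stk38 ENSMUST00000119274, from -0.43 to 0.0052 for ENSMUST00000144299 and from -0.0244 to 0.44 for ENSMUST00000144516. Changes in share ran from -0.53 to 0.36 for Lats2 ENSMUST00000022531, from -0.73 to 0.21 for ENSMUST00000173990, from -0.82 to 0.12 for Mob1a ENSMUST00000055261, from -0.53 to 0.43 for Stk38 ENSMUST00000119274 and from -0.0316 to 0.39 for ENSMUST00000144516. The cause was not tested. With 3 libraries a group and unknown depth, no interval for counting error can be given, and transcripts below the filter are not assessed.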
